A study of Mus musculus with 7 samples.

Results

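The 37 genes described here encode MYC, subunits and initiation factors of RNA polymerase I, and proteins that modify, cut and assemble ribosomal RNA in the nucleolus. They were taken as a list of gene symbols chosen by function, with no measured value in the rule. Earlier results of these data were known when the list was chosen. All 37 were found among the 18193 genes with a probe set of their own. Each gene was read from the probe set with its highest mean level. The samples were plantaris muscles of 4-month-old Pax7-DTA mice, a cross of Pax7-CreER and Rosa26-DTA, on 7 Affymetrix Mouse 430 2.0 arrays. Mice of all 4 groups carried both alleles: the Cre recombinase that tamoxifen activates is driven from Pax7, the transcription factor of satellite cells, and it switches on a diphtheria toxin fragment in cells that express it. The groups were vehicle with sham surgery (1 array, male), tamoxifen with sham surgery (1 array, male), vehicle after 1 week of overload (1 female array and 1 male array) and tamoxifen after 1 week of overload (2 male arrays and 1 female array). Overload means that synergist muscles were removed surgically so that the plantaris carries their work. No group received tamoxifen without the toxin allele, so an effect of the drug and an effect of losing satellite cells cannot be told apart. The labels read as 1 mouse an array, while the series text speaks of pooled muscle and of 11 animals, so p-values measure only the spread between these arrays.

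Ribosomes are built in the nucleolus. RNA polymerase I, brought to the ribosomal DNA by upstream binding factor, the selectivity factor SL1 and RRN3, makes a long precursor RNA that small nucleolar ribonucleoproteins modify and that assembly factors cut and fold into the small and large ribosomal subunits. MYC is known to raise transcription of many of these genes, and growing skeletal muscle is known for making more ribosomes. The arrays measured messenger RNA of these proteins, not ribosomal RNA and not ribosomes.

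At the deposited scaling, most of these messenger RNAs stayed close to their sham level after overload. With the mean of both treatments compared against sham, 1 of the 37 genes was called higher (Taf1d) and 5 were called lower (Nob1, Rrs1, Dkc1, Nop10 and Mybbp1a), at an adjusted p under 0.05 from limma with Benjamini-Hochberg adjustment over all genes. That is 2.7% of the list higher, where 14.7% of all genes were called higher, and 13.5% lower, where 8.16% of all genes were called lower. The median difference over the list was -0.16 on the log2 scale, and it was 0.07 over all genes. The fitted difference was positive for 16 members and negative for 21, and it ran from -0.80 (Nob1) to 0.98 (Myc). In 33 of 37 members, or 89.2%, it was smaller than 1.5-fold, a size that 57.2% of all genes stayed under. After each array was centred on its median, 23 of 37 members (62.2%) and 53.2% of all genes were within 1.5-fold. At the deposited scaling, 64.2% of the 10233 genes whose mean level lay within the range of the members stayed under 1.5-fold, beside 89.2% of the members.

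The calls rest on few arrays and on how the spread was estimated. Both sham groups hold 1 array, so the residual spread has 2 degrees of freedom, to which limma added 5.95 from other genes along the trend of spread with intensity. Without that trend no gene of the 18193 was called in any comparison of overload with sham, while 5234 passed an unadjusted p of 0.05 in the comparison over both treatments, against 6292 with the trend. The differences themselves do not depend on that choice. Leaving out the second vehicle overload array also ended all 6 calls of members, with 1428 genes higher and 496 lower left among all genes.

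**Figure D1:**
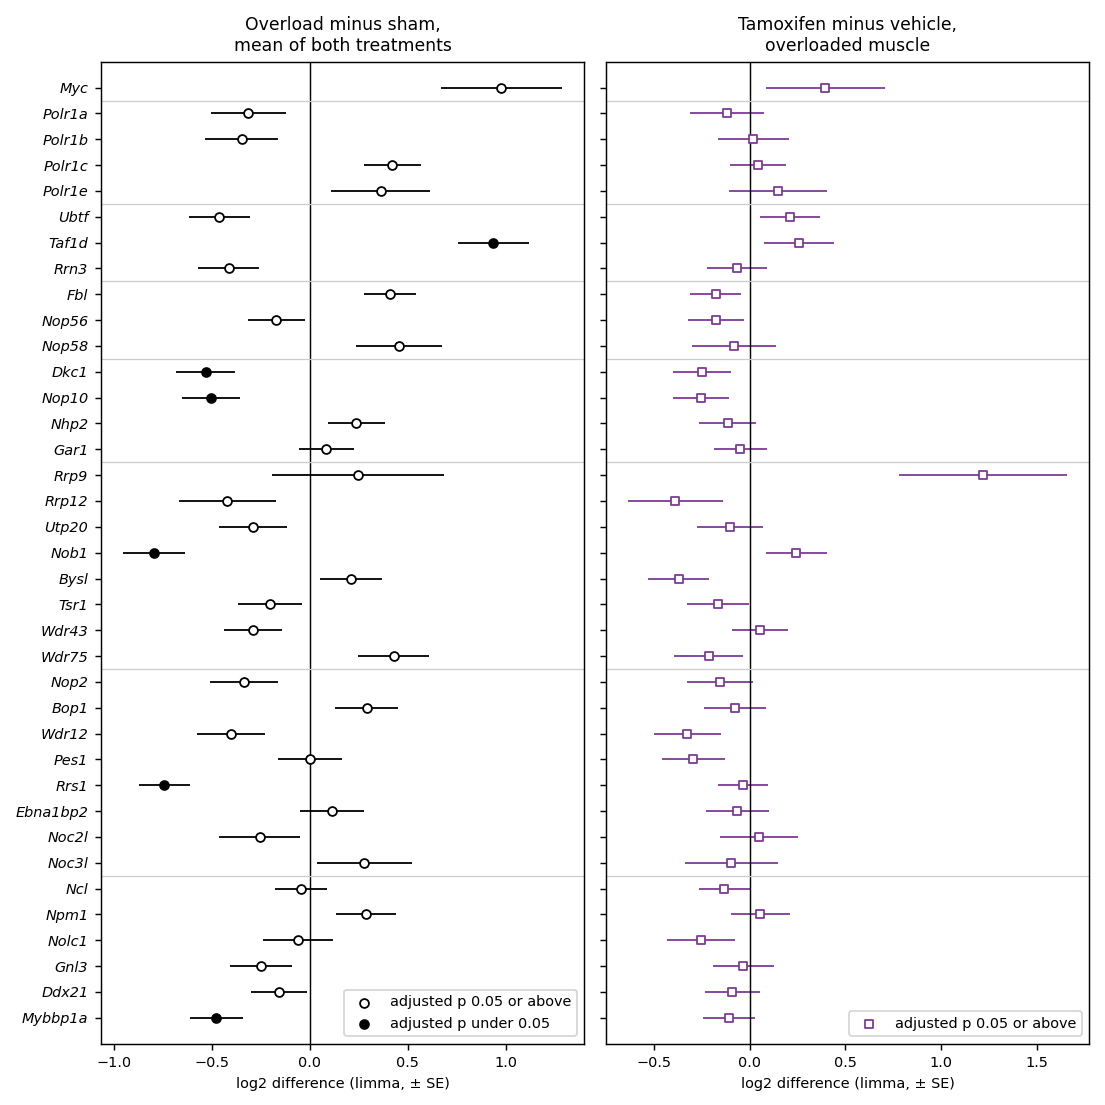
Log2 difference from limma with its SE (bars) for each of the 37 genes, grouped by role, between overload and sham as the mean of both treatments (left) and between tamoxifen and vehicle among overload arrays (right). Filled points have an adjusted p under 0.05: on the left Taf1d lies at 0.94 and the 5 genes called lower between -0.80 and -0.48, and on the right no point is filled.

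Myc, the growth regulator of the list, had the largest positive difference of the list but did not pass the test. Its signal was 149 in vehicle sham and 126 in tamoxifen sham. After overload it was 428 and 212 in the vehicle arrays and 239.8, 448 and 454 in the tamoxifen arrays. Every overload array lay above both sham arrays, and the treatments overlapped. The difference was 0.98 ± 0.31 (SE) on the log2 scale, a ratio of 1.97 with a 95% interval of 1.20 to 3.24 (adjusted p = 0.057). Of 19 alternative settings, 5 called it higher, with differences from 0.69 to 1.27. The female arrays were 0.70 above the male arrays in the fit, and both sham arrays were male.

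Among the RNA polymerase I initiation factors, Taf1d rose, while Ubtf and Rrn3 had lower means without a call. Taf1d, a TATA-binding-protein-associated factor of SL1, read 289 and 325 in vehicle and tamoxifen sham, 405 and 558 in vehicle overload, and 580.3, 686 and 523 in tamoxifen overload. No overload array came down to either sham array. The difference was 0.94 ± 0.18, a ratio of 1.91 (adjusted p = 0.009), with 0.89 in vehicle and 0.98 in tamoxifen. All 7 probe sets of Taf1d had positive differences over both treatments, from 0.17 to 1.71, and the one at 1.71 was also called. The near-equal values of 0.89 and 0.98 belong to the probe set used. In vehicle alone the others differed in sign, the lowest being -0.60 ± 0.47 and the highest 1.04 ± 0.36. In tamoxifen alone all were positive, with 0.44 ± 0.58 as the smallest value and 2.38 ± 0.33 as the largest. None of the 7 was called for a difference between treatments in response to overload. Averaging the probe sets of Taf1d ended its call.

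Ubtf encodes upstream binding factor, which opens ribosomal DNA for transcription. It read 948 and 1109.6 in sham, 764 and 685 in vehicle overload, and 732, 887 and 867 in tamoxifen overload. All overload arrays were below both sham arrays, at -0.46 ± 0.16 (adjusted p = 0.071). A dimmer probe set of Ubtf had the opposite sign, 0.34 ± 0.21 (adjusted p = 0.308). Rrn3, the factor that makes the polymerase competent to start, lay under both sham values (822 and 826) on every overload array, with 514 the lowest and 638 the highest, and differed by -0.41 ± 0.16 (adjusted p = 0.099).

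None of the 4 RNA polymerase I subunits was called. Polr1a and Polr1b, the catalytic subunits, had negative differences of -0.31 ± 0.19 and -0.35 ± 0.19. Polr1c, a subunit shared with RNA polymerase III, had a positive one, with sham signals of 623 and 701 and overload signals from 808 to 914 (0.42 ± 0.15, adjusted p = 0.075). Its overload arrays all lay above sham. In 2 of the 4 subunits, Polr1b being 1 of them, the overload arrays all lay below. Polr1e, the subunit known as PAF53, differed by 0.36 ± 0.25, and its sham arrays were themselves apart at 209 and 130.3. A list of 13 further subunits and factors of this polymerase held no gene called in either direction, with a median of 0.06. After quantile normalization 1 was higher, with a median of -0.02, and after centring on the array median 4 were lower, with a median of -0.23.

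Small nucleolar ribonucleoproteins come in 2 classes, each with its own core proteins. Of the box C/D proteins, which guide methylation of ribosomal RNA, none of 3 was called. Fibrillarin (Fbl), the methyltransferase, read 978 and 1122 in sham and 1299 to 1516 after overload, above sham on every array (0.41 ± 0.13, adjusted p = 0.061). Nop58 differed by 0.45 ± 0.22 and Nop56 by -0.17 ± 0.15, neither called.

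Of the 4 box H/ACA proteins, which carry out pseudouridylation, 2 fell. Dyskerin (Dkc1), the pseudouridine synthase, read 1675 and 1582 in sham, 1063 and 1332 in vehicle overload, and 1002, 981 and 1053 in tamoxifen overload. Nop10, a small core protein, read 9854 and 9741 in sham, 7225 and 7850.4 in vehicle overload, and 6675, 5766 and 6554 in tamoxifen overload. In both genes the overload and sham arrays did not overlap.

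The differences were -0.53 ± 0.15 for Dkc1 (adjusted p = 0.040) and -0.50 ± 0.15 for Nop10 (adjusted p = 0.042), ratios of 0.692 and 0.705. These calls are near the threshold: Dkc1 kept its call in 7 and Nop10 in 8 of the 19 alternatives, always with a negative difference. The second of 3 probe sets of Dkc1 gave -0.49, and the third, the dimmest, gave 0.68 ± 0.25 (adjusted p = 0.098). A second probe set of Nop10 gave -0.39 ± 0.14 and was not called (adjusted p = 0.087). In that fit over all probe sets the one used for Nop10 was not called either (adjusted p = 0.053). Nhp2 and Gar1, the other core proteins, differed by 0.24 ± 0.15 and 0.09 ± 0.14.

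**Figure D2:**
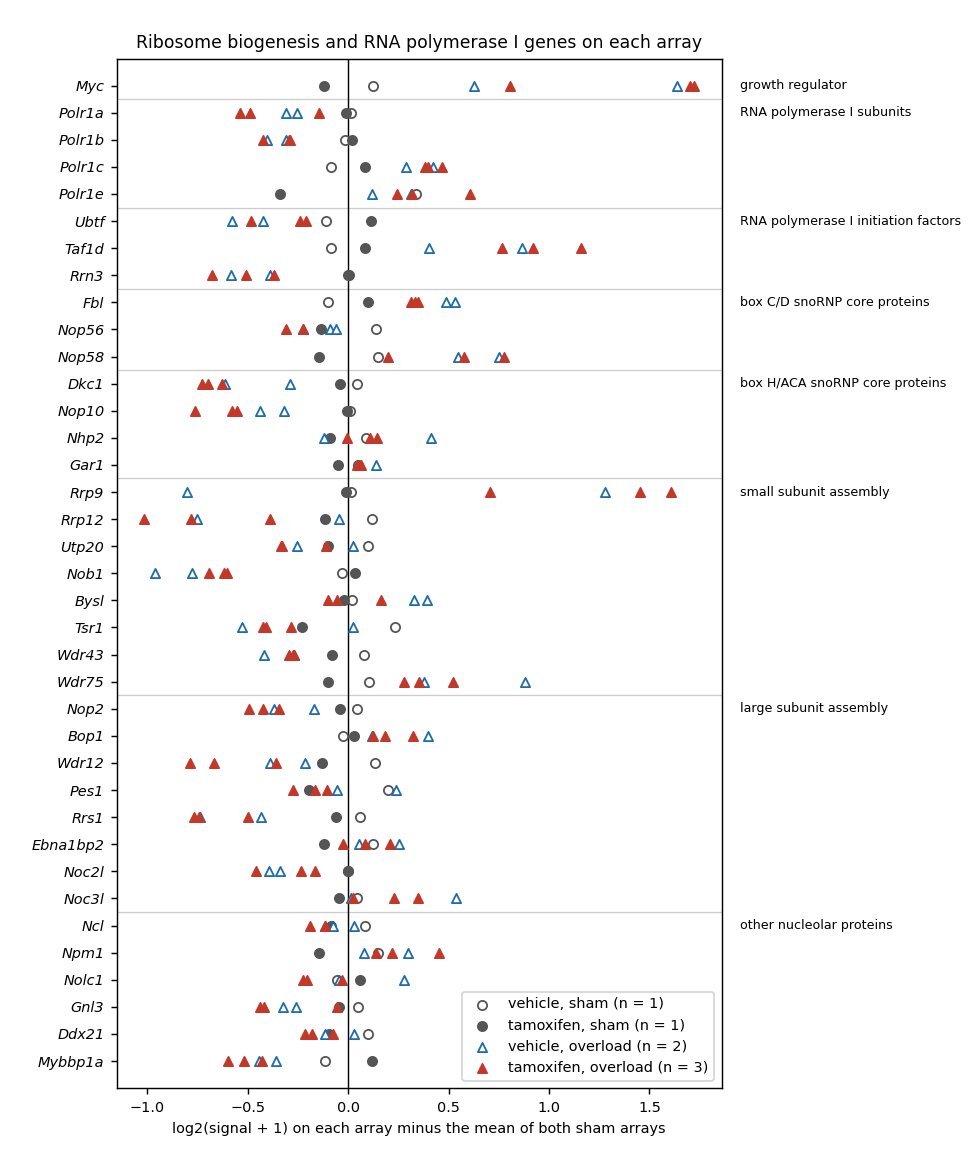
Level of each of the 37 genes on each of the 7 arrays, as log2(signal + 1) minus the mean of both sham arrays, grouped by role (circles sham, triangles overload). Triangles of Myc and Taf1d all lie to the right of both circles, those of Nob1, Rrs1, Dkc1, Nop10 and Mybbp1a all lie to the left, and those of Rrp9 spread to both sides.

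Among the 8 small subunit assembly factors, Nob1 fell. NOB1 is the endonuclease that makes the last cut of the small subunit's RNA. Its signal was 868 in vehicle sham and 906 in tamoxifen sham, then 518 and 455 in vehicle overload and 547, 583 and 576 in tamoxifen overload. The highest overload array stayed well under the lower sham array. The difference of -0.80 ± 0.16 was the largest fall of the list, a ratio of 0.576 (adjusted p = 0.010), and it stayed called in 16 of 19 alternatives.

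The other 7 small subunit factors were not called. Wdr75 (0.43 ± 0.18, adjusted p = 0.137) was above sham on every overload array, with 599 and 690 in sham and 779 to 1182 after overload, and Wdr43 (-0.29 ± 0.15) was below sham on every one. Both encode proteins that take part in early processing of the precursor. Bysl, Tsr1, Utp20 and Rrp12 had differences of 0.21, -0.20, -0.29 and -0.42 and overlapped with sham. Rrp9, a protein bound to the U3 ribonucleoprotein, was the least reproducible member: it read 78.2 and 76.8 in sham, 189 and 43.9 in vehicle overload, and 127, 214 and 239 in tamoxifen overload. The value of 43.9 is under the signal of 53.6 taken as background, and Rrp9 was the single member below background on any array.

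Among the 8 large subunit assembly factors, Rrs1 fell. RRS1 is needed to bring the ribonucleoprotein of the smallest ribosomal RNA into the large subunit. The sham arrays read 2173 (vehicle) and 1999.8 (tamoxifen). Overload arrays read 1540.2 and 1248 with vehicle and 1225, 1246 and 1473 with tamoxifen, all below sham. The difference was -0.74 ± 0.13, a ratio of 0.597 (adjusted p = 0.006), it was called in 16 of 19 alternatives, and a second probe set gave -0.60 and was also called.

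PES1, BOP1 and WDR12 form the PeBoW complex of large subunit processing, and their messenger RNAs did not move together. Pes1 differed by 0.00 ± 0.16, Bop1 by 0.29 ± 0.16 and Wdr12 by -0.40 ± 0.17, with no call. The overload arrays of Bop1 (674 to 817) all lay above its sham arrays (609 and 633), those of Wdr12 (610.0 to 907) all lay below 961 and 1156, and those of Pes1 overlapped with sham. Nop2, an RNA methyltransferase, differed by -0.34 ± 0.17. Noc2l, Noc3l and Ebna1bp2 differed by -0.26, 0.28 and 0.11, within 1.5 SE of 0.

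Of the 6 other nucleolar proteins, Mybbp1a fell and 5 were not called. MYBBP1A is a nucleolar MYB-binding protein. Its signal was 1879 and 2208 in sham, 1498 and 1586 in vehicle overload, and 1418.5, 1344 and 1512 in tamoxifen overload, with no overlap (-0.48 ± 0.14, adjusted p = 0.039). The call was kept in 7 of 19 alternatives and the negative sign in all of them. A second probe set of Mybbp1a gave -0.40 ± 0.15 and was not called (adjusted p = 0.118). Nucleolin (Ncl) and nucleophosmin (Npm1), abundant nucleolar proteins, were among the brightest members, and both overlapped between sham and overload. They differed by -0.05 ± 0.13 and 0.29 ± 0.15, with 95% intervals of 0.785 to 1.20 and 0.955 to 1.56 as ratios. Gnl3 (nucleostemin), Nolc1 and Ddx21 differed by -0.25, -0.06 and -0.16, and a second probe set of Nolc1 was called lower at -0.80.

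Counted over the list, 7 members had every overload array above both sham arrays, a pattern shown by 23.1% of all genes, and 14 had every overload array below, a pattern shown by 18.3%. The 7 included 2 of the 3 box C/D proteins. The 14 were 4 large subunit assembly factors and 2 each of the polymerase subunits, initiation factors, box H/ACA proteins, small subunit assembly factors and other nucleolar proteins. The remaining 16 overlapped. Of the 26 members with several probe sets, 16 had the same sign in all of them. Ubtf, Dkc1, Bysl, Noc2l, Ddx21, Pes1, Polr1a and Ebna1bp2 disagreed in sign among probe sets above background on every array.

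**Figure D3:**
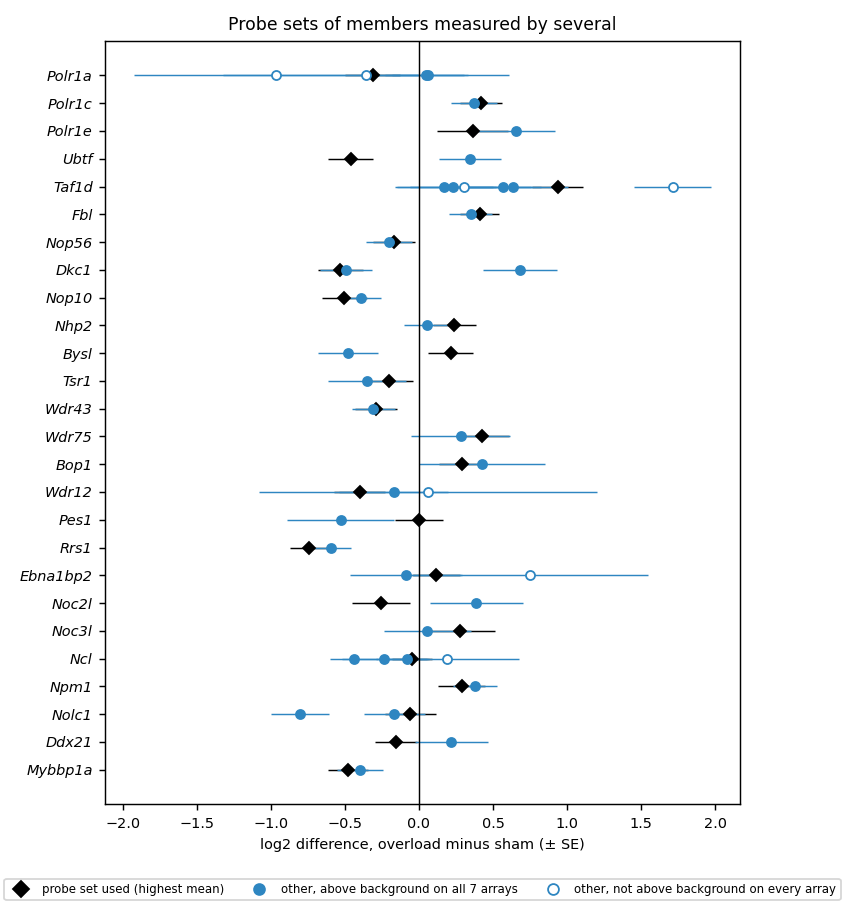
Log2 difference between overload and sham, as the mean of both treatments, with its SE (bars), for each probe set of the 26 genes that have several. Diamonds are the probe sets used and open circles those not above background on every array. All 7 probe sets of Taf1d lie above 0, and those of Dkc1 and Ubtf lie on both sides of it.

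The overload difference was then read within each treatment. With vehicle, no member was called higher (6.35% of all genes were) and 2 were called lower, Nob1 (-0.89) and Rrs1 (-0.79), where 2.44% of all genes were called lower. With tamoxifen, Taf1d was called higher (9.98% of all genes), and Rrs1 (-0.70) and Mybbp1a (-0.65) were called lower (4.9% of all genes). The median over the members was -0.22 with vehicle and -0.10 with tamoxifen. Members with the same sign under both treatments numbered 33 of 37, or 89.2%, and 73.4% of all genes shared their sign. No array is used in both differences, but they share the fit's term for sex. The 4 genes with opposite signs were Polr1e, Rrp9, Nolc1 and Pes1. The test of the difference between treatments (the interaction, by limma) called no member and 0% of all genes, with 0 members and 1021 genes at an unadjusted p under 0.05. Fitted interactions reached 1.24 for Rrp9 and 0.83 for Polr1e, so this count does not show that the treatments act alike.

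Comparing tamoxifen with vehicle among the overload arrays, limma called no member and 0% of all genes, and an ordinary linear model called none either. At an unadjusted p under 0.05 limma gave 1932 genes, 2 of them members. These were Rrp9 (1.22 ± 0.44, adjusted p = 0.428), whose value rests on the single array below background, and Bysl (-0.37 ± 0.16, adjusted p = 0.467). The difference was negative for 26 members and positive for 11, with a median of -0.09, against 0.03 over all genes. For 7 members (Fbl, Nop56, Dkc1, Nop10, Bysl, Pes1 and Ncl) every tamoxifen overload array was below both vehicle overload arrays, a pattern of 12.6% of all genes, and for Nob1 every one was above, a pattern of 16.9%. The 95% interval of the difference was -0.60 to 0.10 for Dkc1, -0.30 to 0.30 for Npm1 and -0.32 to 1.11 for Myc, so differences of those sizes could not be told from 0 with 2 and 3 arrays. Beside these values, the mean log2 level of neutrophil markers was 5.62 to 5.84 with vehicle and 6.60 to 7.82 with tamoxifen. Of 8 neutrophil markers, 3 were above background on every array. In the same order, satellite cell and myoblast markers were at 8.31 to 8.74 and 7.31 to 7.98. Muscle fibre markers were at 14.97 to 14.98 and 14.63 to 14.89, and macrophage markers at 10.34 to 10.40 and 10.45 to 11.06. Fibroblast markers were at 12.54 to 12.83 and 12.85 to 13.00. The endothelial, lymphocyte and dividing cell lists overlapped. The part of these cell types in the members' differences was not tested. Between the sham arrays, with 1 in each group and no test, no member was past 2-fold, where 10.5% of all genes were higher and 7.15% lower by that size. The widest gap was that of Polr1e, 0.68 lower with tamoxifen.

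The scaling of the arrays moves these values as a group. The deposited signals have the same trimmed mean of 500 on every array, but the median signal ran from 88.2 to 99.4 in sham and from 105.8 to 127.7 after overload. When each array was centred on its median, the median difference of all genes moved by -0.29, the share of calls that were higher went from 64.3% to 39.1%, and 13 members were called lower and 1 higher. The 13 were the 5 above with Gnl3, Nop2, Polr1b, Rrn3, Ubtf, Utp20, Wdr12 and Wdr43. Quantile normalization shifted the all-gene median by -0.13, with Taf1d called higher and Nob1 and Rrs1 lower. The median of the members was below that of all genes by 0.22 as deposited and by 0.14 after quantile normalization. Centring moves the difference of every gene by the same amount, so the gap of 0.22 after it was fixed in advance. Arrays scaled in this way cannot show whether the muscle's total RNA or ribosome content changed.

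**Figure D4:**
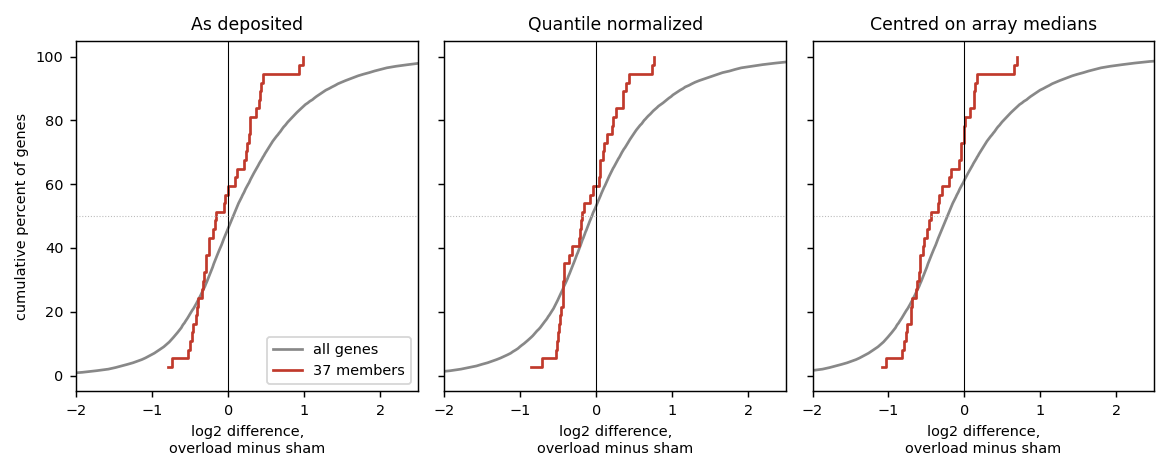
Cumulative percent of genes against the log2 difference between overload and sham, for all genes (grey) and the 37 genes (red), under the deposited scaling, quantile normalization and centring of each array on its median. The median of the 37 is -0.16, -0.19 and -0.45 in turn, to the left of that of all genes in each panel. Centring moves both curves by the same amount, so their gap is the same as under the deposited scaling.

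Markers of macrophages, fibroblasts and dividing cells rose over the same arrays. Of 17 macrophage and monocyte markers 16 were called higher after overload, of 12 fibroblast markers 10, and of 15 genes of dividing cells 11, with medians of 2.08, 2.04 and 2.52. Of the fibroblast markers 1 was called lower. The dividing cell list started near background: its mean log2 level in sham was 5.65 to 6.12, with background at 5.77. Of those 15 genes, 5 were above background on every array. The mean log2 level of the macrophage list was 7.59 to 8.58 in sham and 10.3 to 11.1 after overload. The 14 muscle fibre markers, all above background on every array, had a mean level of 15.1 to 15.2 in sham and 14.6 to 15.0 after overload, with no call and a median of -0.30 (0.01 after quantile normalization). Satellite cell and myoblast markers had 4 of 11 higher and neutrophil markers 2 of 8. Endothelial markers had 2 of 10 higher and 1 lower, and of 9 lymphocyte markers none was called and none was above background on every array. Over the same arrays the mean level of the 37 genes was 9.58 to 9.69 and 9.54 to 9.62. In whole muscle, fewer cells of a type and less RNA per cell cannot be told apart, and the part of this change of cells in the members' values was not tested. Pax7, the gene of the cells targeted, read 92.8 and 41.2 in vehicle and tamoxifen sham, 274 and 349 in vehicle overload, and 57.9, 9.97 and 120.4 in tamoxifen overload. Without overlap in overload it differed by -2.67 ± 0.81 (adjusted p = 0.399).

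Other genes of ribosome assembly, outside the 37, were counted by list. Of 48 further small subunit factors, Riok2 and Utp18 were called higher and Emg1 lower, with a median of -0.11. Riok2, a kinase of late small subunit maturation, had 1 female tamoxifen overload array at 439, under both sham arrays (820 and 556), so its difference of 0.95 depends on the term for sex. Of 50 further large subunit factors, Ddx54 (0.67) and Nsa2 (0.47) were higher and Bccip (-0.68) and Ddx24 (-0.55) lower. Centring on the array median gave 1 higher and 10 lower of the 48 (median -0.40) and 0 higher and 8 lower of the 50 (median -0.35). Znhit3, which acts in assembly of box C/D particles, was the gene called of 11 in that list (-0.94 ± 0.19, adjusted p = 0.011). In the nuclear exosome, which trims precursor RNA, Mphosph6 was called higher of 15 genes (0.80 ± 0.24, adjusted p = 0.048). After quantile normalization 0 of the 15 were called, and after centring 0 were higher and 3 lower.

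RNA polymerase III makes the smallest ribosomal RNA and transfer RNAs. Of 21 genes of that machinery none was higher and 3 were lower: Polr3gl (-0.69 ± 0.15, adjusted p = 0.013), Maf1, its repressor (-0.56 ± 0.14, adjusted p = 0.024), and Polr3k (-0.45 ± 0.14, adjusted p = 0.046). Maf1 read 3706 and 3618 in sham and 2086 to 2809 after overload, without overlap. Mitochondrial ribosome genes, kept as a contrast, had 7 of 27 lower and none higher, with a median of -0.31, among them Tfb2m (-0.68), Mrps18b (-0.65) and Dap3 (-0.60). After quantile normalization 4 of the 27 were lower, and after centring 13.

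The 47 cytosolic ribosomal protein genes had 1 called higher (Rps25, 0.84) and 1 lower (Rpl3l, -1.14 ± 0.16, adjusted p = 0.002), with a median of 0.12. Rps25 was read from a probe set that is dim for this list, at 203 and 262 in sham and 299 to 443 after overload. The mean log2 level of the list was 12.7 in sham and 12.8 to 12.9 after overload. Rpl3l, the form of ribosomal protein L3 known from striated muscle, read 16674 and 16527 in sham and 6506 to 10049 after overload. The direction of this list depends on scaling: 12 were higher with a median of 0.31 after quantile normalization, and the median was -0.17 after centring on the array median.

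In the MYC network 6 of 12 genes were called. Of the 12 relatives and partners of MYC, 4 were called higher (Mycn, Mxd4, Mxd3 and Max) and 2 lower (Mlxipl and Mxi1), with a median of 0.37. That median depends on scaling. After quantile normalization it was 0.14, with 3 higher and 2 lower, and after centring on the array median 0.08, with 2 higher and 3 lower. Mycn, the MYC paralog known from embryonic tissue, read 63.6 and 14.5 in sham, the second under background, and 93.2 to 167 after overload (1.87 ± 0.35, adjusted p = 0.008). Mxd4, which competes with MYC for MAX, differed by 1.02 ± 0.15 (adjusted p = 0.003). Of 20 genes known as MYC targets outside the nucleolus, 5 were higher, among them Ccnd2 (1.25), Nme1 (1.09) and Cdk4 (0.97), and 3 were lower, Hspd1, Ppat and Paics. The median of these 20 was -0.13, and 9 had a positive difference. After quantile normalization the median was -0.10, with 5 higher and 3 lower, and after centring -0.42, with 4 higher and 4 lower. No gene of any of these lists was called between tamoxifen and vehicle overload.

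**Figure D5:**
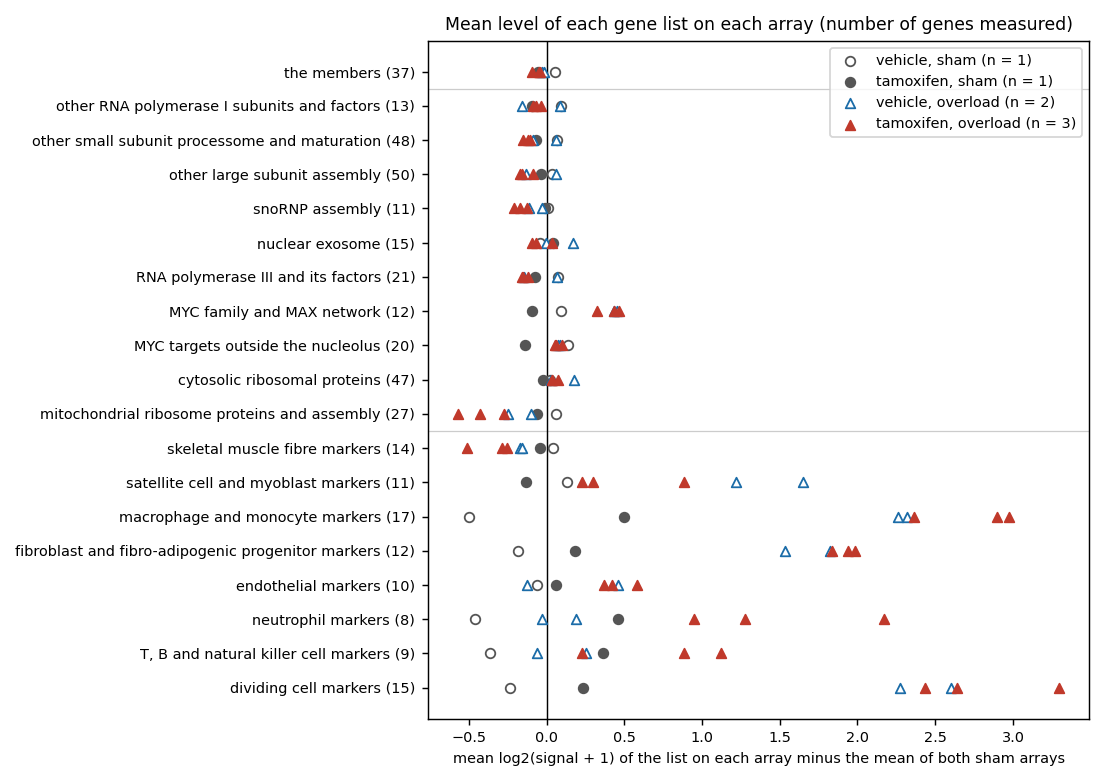
Mean log2(signal + 1) of each gene list on each of the 7 arrays, minus the mean of both sham arrays, with the number of genes measured in brackets. Arrays of the 37 genes (first line) lie close together near 0, while those of the macrophage, fibroblast and dividing cell lists lie far to the right after overload.

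MYC with MAX binds the E box CACGTG, so the start regions of the members are shown where they hold it. RefSeq windows from 250 bases before to 50 after a gene's start (GRCm38.p6) were found for 31 of the 37 genes, 39 windows in all since some genes have several. The E box, which reads the same on both strands, occurred in 7 of the 39 windows (17.9%), each of a different gene, and in 7.84% of the 21263 windows of coding genes. The related letters CACGCG, searched on both strands and not overlapping the E box as letters, occurred in 14 of the 39 windows (35.9%), of 12 genes, and in 12.1% of the windows of coding genes. Over all 32851 windows, non-coding genes included, the shares were 7.15% and 9.27%. A match is a description of the letters and not a measured binding site. The E boxes are in capitals below, read 5′ to 3′ along the gene's strand:
Mybbp1a (chr11:72441355-72441376, plus strand): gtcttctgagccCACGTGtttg
Nop2 (chr6:125131811-125131840, plus strand): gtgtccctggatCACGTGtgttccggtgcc
Pes1 (chr11:3963965-3963994, plus strand): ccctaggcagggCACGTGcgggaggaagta
Rrn3 (chr16:13780472-13780501, plus strand): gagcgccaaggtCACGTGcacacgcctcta
Rrn3 (chr16:13780639-13780668, plus strand): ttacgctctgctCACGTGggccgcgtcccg
Tsr1 (chr11:74898092-74898121, plus strand): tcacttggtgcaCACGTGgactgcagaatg
Utp20 (chr10:88826765-88826789, minus strand): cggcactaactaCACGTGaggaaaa
Wdr43 (chr17:71616220-71616249, plus strand): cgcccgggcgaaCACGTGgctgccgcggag

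Rrn3 is the member with 2 E boxes, starting 215 and 48 bases before its start. Those of Mybbp1a, Pes1, Tsr1, Utp20 and Wdr43 lie after the start and that of Nop2 lies 60 bases before it. Of these 7 genes, Mybbp1a was called lower after overload and the other 6 were not called. Their differences were -0.48 for Mybbp1a, -0.41 for Rrn3, -0.34 for Nop2, -0.29 for both Utp20 and Wdr43, -0.20 for Tsr1 and 0.00 for Pes1. The 6 genes without a window could not be searched. Their differences were 0.98 for Myc, 0.41 for Fbl, 0.29 for both Bop1 and Npm1, -0.42 for Rrp12 and -0.74 for Rrs1. Taf1d, the member called higher, holds CACGCG and no E box in its window.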

How the data were processed

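Total RNA (1 µg) of plantaris was hybridised to 7 arrays, per the labels. The authors deposited linear intensities, scaled so that every array has a 2% trimmed mean of 500. The submitters' processing notes name Partek, and how probe sets were summarised is not stated there. No read depth applies, and the number of arrays limits the precision.

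Of 45101 probe sets, 34945 had 1 gene symbol in the platform annotation, 932 several and 9160 none, besides 64 controls. Differences were computed from the deposited intensities as log2(value + 1), in limma 3.58.1 (R 4.3.3, lmFit and eBayes with intensity trend) over all 18193 genes, with group means and a term for sex, two-sided, adjusted by Benjamini-Hochberg. Errors are SE of the fit. Values of single probe sets come from the same model fitted over all 34945 probe sets with 1 gene symbol. Background is the 95th percentile of 77 receptor genes foreign to muscle (signal 53.6). The script was tested on simulated data. All members are named, and of each other list up to 3 called genes with the largest differences (Nsa2, Mxd3, Max, Mxi1, Hspd1, Ppat and Paics were named after their values were seen). The members and lists were chosen with earlier results of these data known. Alternatives covered sex, scaling, pseudocount, dim filters, probe set choice, variance model and leaving out each array. Male arrays alone and leaving out either female array gave the same differences, so in counts of alternatives they are not separate checks.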

Additional observations from a re-analysis of the deposited data

How the results depend on the processing

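No member called under the settings above changed sign under any alternative run. Counts not given under a setting were within 1.5 times the original. Numbers below are members called, higher then lower, for overload against sham over both treatments (1 and 5), with vehicle (0 and 2) and with tamoxifen (1 and 2). Without the sex term they were 3 and 6, 1 and 1, and 0 and 4. Male arrays alone gave 2 lower over both treatments and 0 lower in each treatment. Quantile normalization gave 2 lower over both treatments, 0 lower with vehicle, and 0 higher and 1 lower with tamoxifen. Centring on the array median gave 13 lower over both treatments, and 0 higher and 5 lower with tamoxifen. A pseudocount of 16 gave 1 lower with vehicle. Both filters on dim genes gave 2 higher over both treatments, and 2 higher and 4 lower with tamoxifen. Averaging the probe sets of each gene gave 0 higher and 2 lower, 1 lower with vehicle, and 0 and 0 with tamoxifen. Without the intensity trend, and in an ordinary linear model, limma called 0 members in any of these comparisons, with 3 and 11 members at an unadjusted p under 0.05 over both treatments. A minimum of 1.5-fold gave 2 lower, and the additive model 2 higher and 6 lower. Over all genes, 2678 higher and 1485 lower became 1740 and 2710 after centring and 0 and 0 without the trend or in the ordinary model, and leaving out single arrays gave 1428 to 2907 higher and 496 to 1788 lower. The cause of these shifts was not tested.

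Leaving out each array in turn gave 0 to 2 higher and 0 to 5 lower over both treatments, 0 to 1 and 0 to 2 with vehicle, and 0 to 2 and 0 to 2 with tamoxifen. All 6 calls were lost without vehicle overload replicate 2, and Nob1, Rrs1 and Taf1d were the ones kept when either sham array, vehicle overload replicate 1 or the female tamoxifen overload array (replicate 3) was left out. Without tamoxifen overload replicate 2, Dkc1 and Mybbp1a lost their calls. When either female array is left out, the term for sex takes up the other one. These settings therefore gave the same differences as male arrays alone, such as -0.50 for Dkc1, and do not check it independently. No paired analysis was possible because the tamoxifen overload group is the only group whose labels carry replicate numbers. With 1 sham array in each treatment, the spread of sham muscle was taken from the overload arrays.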
